A study of Mus musculus with 9 samples.

Results

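The unfolded protein response and the secretory machinery it serves are described here through 38 mouse genes, taken by their symbols from a table of 21930 gene identifiers. The genes were listed by function, with earlier results of these data known, and all 38 were found. Shares of members called below are therefore descriptions, not independent tests of the list. The table holds RNA levels of nasal mucosal tissue from mice of wild-type genotype, in 9 libraries that fall into 3 groups of 3. The eCRS_Exo group received papain, a plant cysteine protease, together with exosomes from mesenchymal stem cells (MSC-Exos). The eCRS group received papain alone, which is used to set up a model of eosinophilic chronic rhinosinusitis, and the control group is labelled with no treatment. Intranasal papain doses of 20 µg, each in a volume of 20 µl, fell on days 0 to 2 and again on days 7 to 11. Exosomes, which are small vesicles shed by cells, were given from day 7 to day 11, and the mice were sampled on day 12. The protocol names PBS as the alternative to exosomes without saying which groups received it, and strain, age and sex are not given in the labels. Nor do they tie libraries to individual mice, so every p-value below reflects differences among libraries that could be technical in origin.

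Proteins bound for secretion are folded in the endoplasmic reticulum (ER), and unfolded protein there activates the sensors IRE1, PERK and ATF6. IRE1 splices the Xbp1 mRNA into the form that encodes an active transcription factor, ATF6 is cut free from the membrane to act as one, and PERK slows translation while favouring that of ATF4. Their target genes encode chaperones, disulfide isomerases, degradation factors and enzymes of amino acid supply. In the nose, goblet cells, glands and plasma cells secrete heavily and are known to depend on this response.

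The transcription factors of this response bind known DNA motifs, and the member promoters that hold them are shown first, for comparison with the changes below. The ER stress response element (ERSE, CCAAT and CCACG with 9 bases of any kind between them), which ATF6 and XBP1 bind together with NF-Y, was searched on both strands of the 250 bases before each gene's start. RefSeq promoters of GRCm38.p6 were at hand for 31 of the 38 members. Of these, 8 held an ERSE (25.8%), against 35 of all 27025 promoters (0.13%). The element of ATF4 with C/EBP factors (CARE, TGATGNAAN) lay in 3 members (9.68%), against 1052 of all promoters (3.89%). The UPRE core TGACGTGG, bound by XBP1, was in 0 members, against 163 promoters (0.603%). No motif overlapped another in the sites shown. A match is a description of letters, not a measured binding site. The members were picked as genes of this response, so a higher share than over all promoters is no independent finding.
Capitals mark the fixed letters of the motif, each line reads 5′ to 3′ on the gene's own strand, and in sites called reversed the motif runs on the opposite strand.
Hspa5 ERSE, chr2:34772020-34772048, plus strand: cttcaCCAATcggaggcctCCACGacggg
Hsp90b1 first ERSE, chr10:86705633-86705661, minus strand: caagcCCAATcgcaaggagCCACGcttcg
Hsp90b1 second ERSE, reversed, chr10:86705528-86705556, minus strand: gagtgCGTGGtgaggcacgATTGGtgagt
Dnajc3 ERSE, chr14:118937822-118937850, plus strand: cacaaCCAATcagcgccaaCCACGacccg
Canx ERSE, chr11:50325795-50325823, minus strand: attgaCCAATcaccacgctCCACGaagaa
Calr ERSE, reversed, chr8:84847070-84847098, minus strand: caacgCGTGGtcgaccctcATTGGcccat
Pdia6 ERSE, chr12:17266486-17266514, plus strand: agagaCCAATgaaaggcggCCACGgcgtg
Creld2 ERSE, reversed, chr15:88819515-88819543, plus strand: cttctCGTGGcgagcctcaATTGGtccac
Syvn1 ERSE, chr19:6046527-6046555, plus strand: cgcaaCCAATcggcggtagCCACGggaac
Asns CARE, chr6:7693214-7693242, minus strand: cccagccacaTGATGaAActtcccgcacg
Chac1 CARE, reversed, chr2:119351038-119351066, plus strand: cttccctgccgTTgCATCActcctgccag
Herpud1 CARE, reversed, chr8:94386306-94386334, plus strand: accacggcgggTTgCATCAgcccgcaccc

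The deposited unit is FPKM, a fragment number divided by transcript length and by the library's total, and no counts come with it, so the depth is unknown. The 15 most abundant genes, mainly odorant-binding and other gland products, took 38.2% to 64.3% of summed FPKM in eCRS_Exo libraries, 64.7% to 77.8% in eCRS libraries and 77% to 78.6% in control libraries. The library eCRS 2 had the highest of its group, inside the control range, and eCRS_Exo 3 the highest of its own, just under the eCRS range. A drop in these few genes lifts the FPKM of every other gene. The median log2 change over all tested genes was 0.19 for eCRS against control, 0.56 for eCRS_Exo against eCRS and 0.76 for eCRS_Exo against control. For this reason the levels were also scaled by the median of ratios, which sets the typical gene level between libraries and brought those medians to within 0.01 of 0. Scale factors were 1.18 to 1.75 in eCRS_Exo libraries, 0.71 to 1.07 in eCRS libraries and 0.763 to 0.765 in control libraries. Unless marked as deposited, a level below is scaled FPKM and a change is a log2 difference of (scaled FPKM + 1) ± SE, which understates changes of low genes. A gene is said to be called, higher or lower, when its limma p-value, adjusted by Benjamini-Hochberg over all genes tested, was under 0.05, and without a mark as deposited this too refers to scaled values. In bulk tissue, fewer cells of a type and less RNA per cell cannot be told apart.

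The members summed to 1073, 953 and 1060 scaled FPKM in eCRS_Exo libraries, 1302, 1414 and 1398 in eCRS libraries, and 1274, 1261 and 1225 in control libraries. The 3 groups did not overlap in this sum, with eCRS highest and eCRS_Exo lowest. By mean level in control libraries, 11 members lay at 50 or above, 13 between 10 and 50, 13 between 1 and 10, and 1 under 1. The chaperones Hsp90b1 (116) and Hspa5 (111) led, followed by P4hb (99.5), Xbp1 (97), Calr (85.4) and Herpud1 (85.3). As a share of summed deposited FPKM, the members took 0.188% to 0.378% in eCRS_Exo libraries, 0.126% to 0.204% in eCRS libraries and 0.117% to 0.135% in control libraries. The group order therefore depends on the scale.

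Of the 38 members, 37 passed the filter on low values (FPKM of at least 1 in at least 3 libraries), and the exception was Ern2. In eCRS against control, 7 members were higher, 18.9% of those tested against a background of 5.77% of all genes, and 0 were lower by limma (2 at an unadjusted p under 0.05), against a background of 4.15%. In eCRS_Exo against eCRS, 1 was higher and 14 were lower, the lower ones 37.8% of those tested, against backgrounds of 13.4% and 16.2%. In eCRS_Exo against control, 2 were higher and 12 were lower, the second count 32.4% of those tested, against backgrounds of 12.3% and 15.6%. The members' median change was 0.12 for eCRS against control, -0.21 for eCRS_Exo against eCRS and -0.13 for eCRS_Exo against control, while the medians of all genes lay within 0.01 of 0. Each of these comparisons shares a group of libraries with each of the others. The count of 7 for eCRS against control came to 3, 4 and 2 without control 1, 2 and 3, and to 4, 3 and 2 without eCRS 1, 2 and 3. The count of 14 for eCRS_Exo against eCRS came to 9 without eCRS 3 and stayed between 9 and 16 in all, and the count of 12 for eCRS_Exo against control stayed between 9 and 12.

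**Figure D1:**
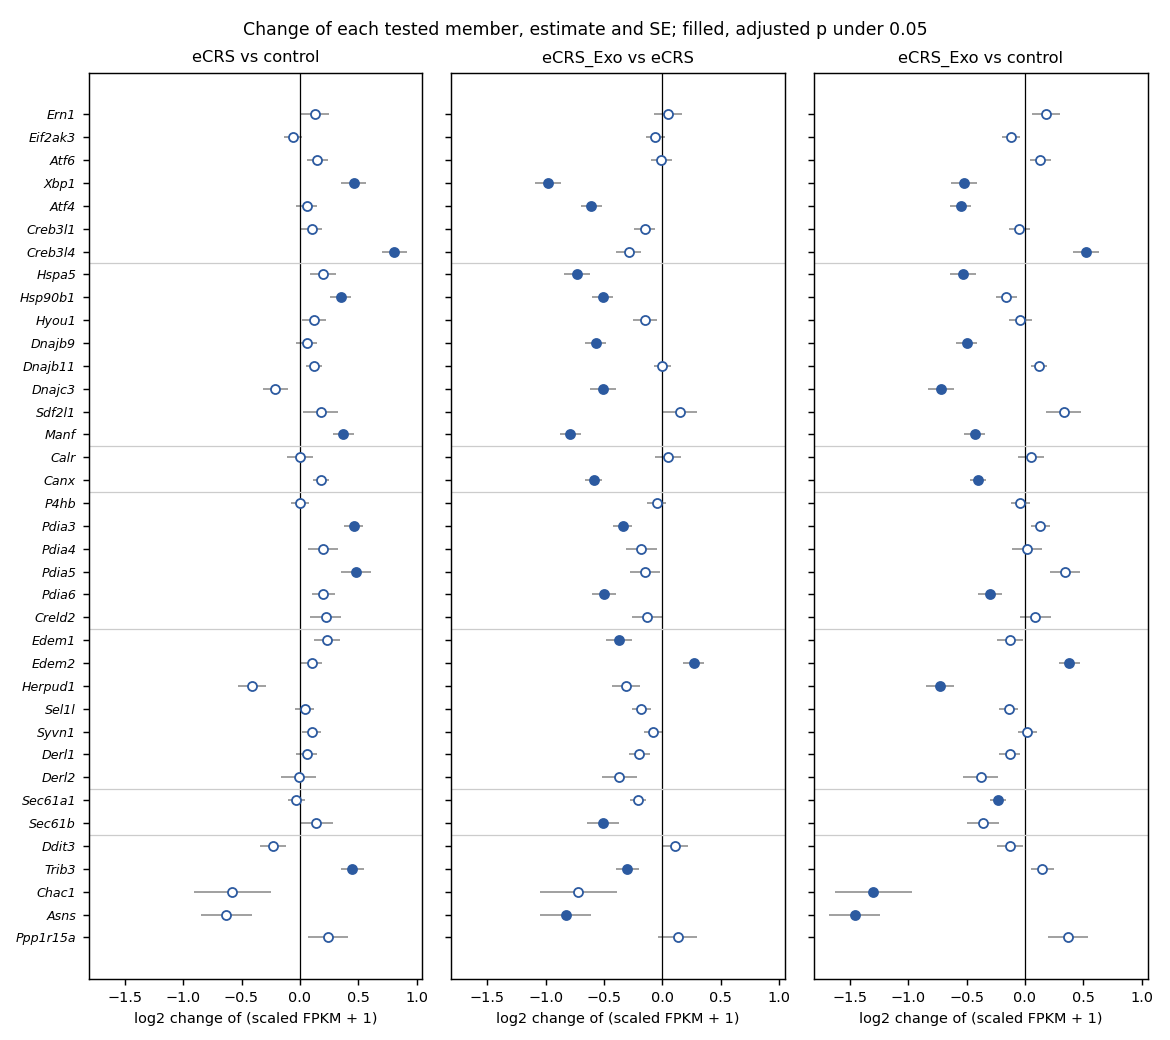
Log2 change of (scaled FPKM + 1) on the horizontal axis, with SE bars, for the 37 tested members in the 3 comparisons. Filled points are those with an adjusted p under 0.05 by limma. They number 7 on the higher side in eCRS against control (5.77% of all genes) and 14 on the lower side in eCRS_Exo against eCRS (16.2%). For the second comparison the deposited values gave 0 lower (0.730% of all genes) and 16 higher, 43.2% of those tested against 63.0% of all genes.

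The deposited values gave other counts. In eCRS against control, 2 members were higher and 0 lower by limma (11 and 1 at an unadjusted p under 0.05), against backgrounds of 3.01% and 0.518%. In eCRS_Exo against eCRS, 16 members were higher, 43.2% of those tested, against a background of 63.0%, and 0 were lower (0 at an unadjusted p under 0.05), against 0.730%. In eCRS_Exo against control, 29 were higher, 78.4% of those tested, against 84.3%, and 2 were lower, against 0.526%. The count of 2 was 1 without any control library, eCRS 1, eCRS 3 or eCRS_Exo 2, 5 without eCRS_Exo 3 and 10 without eCRS 2, and the count of 16 was 4, 9 and 22 without eCRS_Exo 1, 2 and 3 and 7 without eCRS 2. The members' median changes were 0.34, 0.44 and 0.77 in that order, beside 0.19, 0.56 and 0.76 for all genes. Canx, Manf, Pdia6, Sec61a1 and Xbp1 were called higher in eCRS_Exo than in control as deposited and lower after scaling. The calls that were the same on both scales were those of Xbp1 and Creb3l4 in eCRS against control, of Edem2 in eCRS_Exo against eCRS, and of Creb3l4, Edem2, Asns and Chac1 in eCRS_Exo against control.

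**Figure D2:**
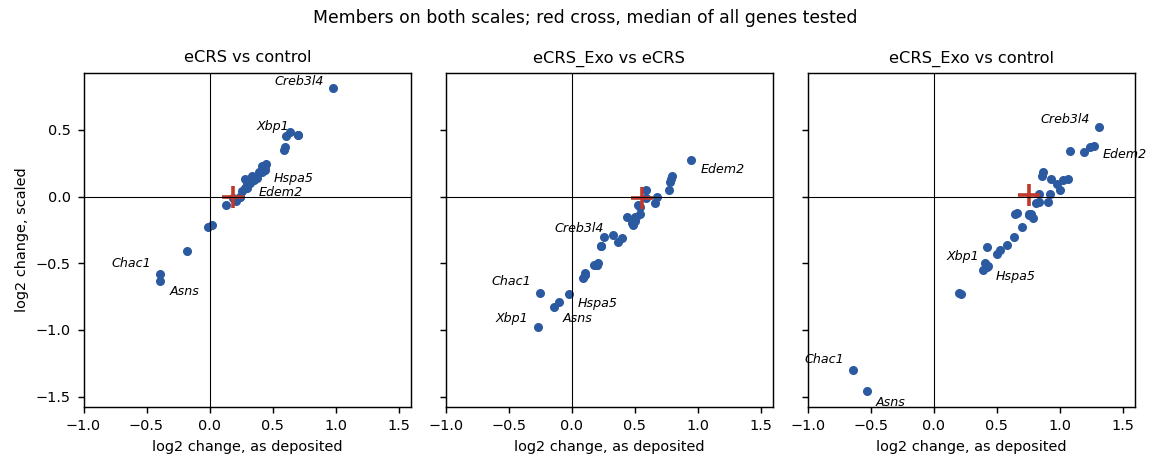
Log2 change of each tested member as deposited (horizontal) and after median-of-ratios scaling (vertical), 1 panel per comparison, with a red cross at the median of all genes. In eCRS_Exo against control the cross sits at 0.76 as deposited, so 5 members that lie right of 0 lie below 0 after scaling, past the threshold on both.

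Xbp1 (chromosome 11, 5520659 to 5525893, plus strand) encodes the transcription factor activated by IRE1. It had 70.1, 60 and 72.6 scaled FPKM in eCRS_Exo libraries, 117, 148 and 137 in eCRS libraries, and 97.8, 97 and 96.1 in control libraries. The 3 groups did not overlap, and the eCRS libraries were the highest. Xbp1 was 38.5% higher in eCRS than in control libraries (0.46 ± 0.11, limma adjusted p = 0.028). In eCRS_Exo it fell by 49.7% relative to eCRS (-0.98 ± 0.11, adjusted p = 0.00154), the lowest adjusted p among the members in this comparison, and by 30.3% relative to control (-0.52 ± 0.11, adjusted p = 0.00926). As deposited, Xbp1 had 122, 95.8 and 85.3 FPKM in eCRS_Exo libraries, 125, 105 and 133 in eCRS libraries, and 74.8, 74 and 73.5 in control libraries. On that scale eCRS_Exo overlapped eCRS (-0.27 ± 0.19, adjusted p = 0.207) and lay above control (0.43 ± 0.19, adjusted p = 0.042), the opposite direction to the scaled change. As a share of the members' own sum, which no library scale touches, Xbp1 made up 6.53%, 6.3% and 6.84% in eCRS_Exo libraries, 9%, 10.5% and 9.81% in eCRS libraries, and 7.67%, 7.69% and 7.84% in control libraries. The gene values do not separate spliced from unspliced Xbp1 mRNA. The scaled rise in eCRS missed the threshold without control 1, 2 or 3 or eCRS 2 or 3 (adjusted p of 0.0755 to 0.0982), and both deposited calls did so without 6 of the libraries, any control library, eCRS 3 and eCRS_Exo 2 among them, with eCRS 1 for eCRS (0.0594 to 0.278) and eCRS_Exo 1 for eCRS_Exo (0.0555 to 0.212).

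Creb3l4, a membrane-bound transcription factor related to ATF6, lies on chromosome 3 (90237500 to 90243512, minus strand). It had 5.6, 5.51 and 6.26 scaled FPKM in eCRS_Exo libraries, 6.29, 8.31 and 7.47 in eCRS libraries, and 3.26, 4.36 and 3.68 in control libraries. Both papain-treated groups lay above every control library. Creb3l4 was 95.4% higher in eCRS than in control (0.81 ± 0.11, limma adjusted p = 0.00252) and 53.8% higher in eCRS_Exo than in control (0.52 ± 0.11, adjusted p = 0.0109). Between eCRS_Exo and eCRS the change was -0.29 ± 0.11 (adjusted p = 0.0757). As deposited, it was also higher in eCRS (0.98 ± 0.18, adjusted p = 0.00311) and in eCRS_Exo (1.31 ± 0.18, adjusted p = 3.91e-05) than in control. Both scaled calls against control held without each library in turn. Its relative Creb3l1, known for its part in collagen secretion by bone cells, had 7.29 to 8.47 scaled FPKM in eCRS_Exo, 8.7 to 9.55 in eCRS and 7.45 to 9.16 in control libraries and was not called in any comparison after scaling. Deposited Creb3l1 was higher in eCRS_Exo than in control (0.81 ± 0.21, limma adjusted p = 0.00188). It was also called higher than in eCRS, a call lost without 7 of the libraries (adjusted p of 0.0573 to 0.19).

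Atf4, the transcription factor favoured when PERK slows translation, had 42.7, 43.2 and 38.6 scaled FPKM in eCRS_Exo libraries, 67.9, 61.3 and 62.7 in eCRS libraries, and 67.6, 61.4 and 55.4 in control libraries. All eCRS_Exo libraries lay below all others, while eCRS and control overlapped. Atf4 RNA fell by 35.1% in eCRS_Exo relative to eCRS (-0.61 ± 0.09, limma adjusted p = 0.00368) and by 32.5% relative to control (-0.55 ± 0.09, adjusted p = 0.00437). The change between eCRS and control was 0.06 ± 0.09 (adjusted p = 0.731). As deposited, Atf4 changed by 0.09 ± 0.22 in eCRS_Exo against eCRS (adjusted p = 0.711) and by 0.39 ± 0.22 against control (adjusted p = 0.105), neither of which passed the threshold. Of the sensors, Ern1 (IRE1 alpha) lay between 1.87 and 3.12 scaled FPKM over all libraries, Eif2ak3 (PERK) between 3.41 and 4.55, and Atf6 between 4.17 and 5.19. After scaling, 0 of these 3 were called by limma in any of the 3 comparisons (0 at an unadjusted p under 0.05), and their changes were -0.12 to 0.18. As deposited, all 3 were higher in eCRS_Exo than in control and than in eCRS, there by 0.59 ± 0.17 for Ern1 (limma adjusted p = 0.00762), 0.53 ± 0.20 for Eif2ak3 (0.0307) and 0.59 ± 0.22 for Atf6 (0.0234). The deposited calls against eCRS were lost without eCRS 2, eCRS_Exo 1 or eCRS_Exo 2 for Atf6 (0.0826 to 0.122) and without these or eCRS 3 for Eif2ak3 (0.0588 to 0.163). Ern2 encodes IRE1 beta, a form of the sensor known from mucus-secreting epithelium. It had 0.475, 0.604 and 1.26 scaled FPKM in eCRS_Exo libraries, 0.621, 0.833 and 0.865 in eCRS libraries, and 0.187, 0.0393 and 0.267 in control libraries. Every library of both papain-treated groups exceeded every control library. Ern2 entered a test without the filter only, with 0.61 for eCRS against control (limma adjusted p = 0.0584), -0.02 for eCRS_Exo against eCRS (0.966) and 0.59 for eCRS_Exo against control (0.039).

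**Figure D3:**
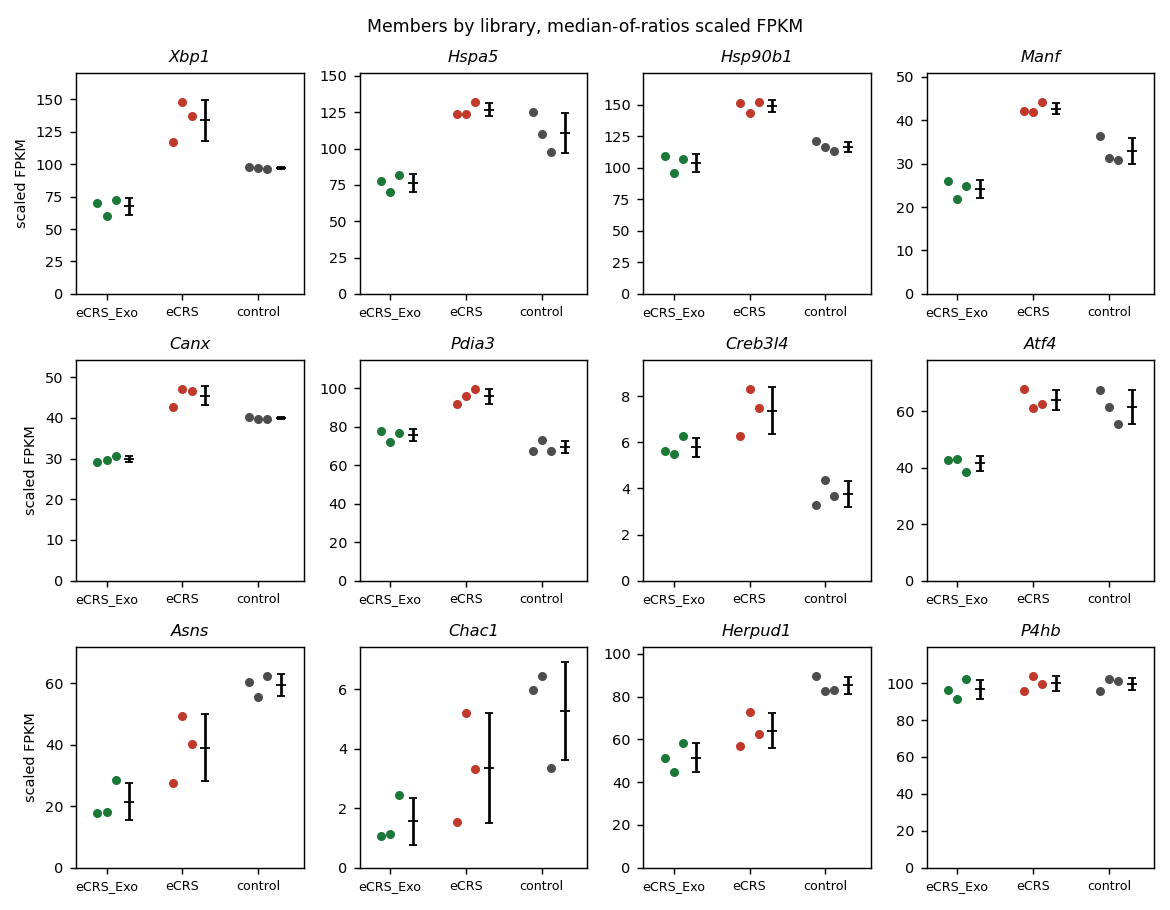
Scaled FPKM (vertical axes from 0) of 12 members in each library, with eCRS_Exo left, eCRS in the middle and control right, and mean ± SD (n = 3 libraries) beside the points. Xbp1, Hspa5, Hsp90b1, Manf and Canx have all eCRS_Exo libraries below all eCRS libraries, and Asns has all control libraries at 55.6 to 62.5, above the rest. As deposited, the eCRS_Exo libraries of Xbp1, Manf and Canx were called above control, not below it.

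Among the 8 genes of the ER Hsp70 and Hsp90 system, 2 were higher in eCRS than in control, against a background of 5.77% of all genes. In eCRS_Exo, 5 were lower than in eCRS and 4 were lower than in control, against 16.2% and 15.6%. As deposited, 2 were higher in eCRS_Exo than in eCRS (25%, against 63.0% of all genes) and 5 were higher than in control (62.5%, against 84.3%). In both, 0 were lower, against 0.730% and 0.526%. Hspa5, which encodes the Hsp70 chaperone BiP and carries an ERSE, had 77.9, 69.8 and 81.5 scaled FPKM in eCRS_Exo libraries, 124, 124 and 132 in eCRS libraries, and 125, 110 and 97.5 in control libraries. All eCRS_Exo libraries were below all others, and eCRS overlapped control. Hspa5 fell by 39.7% in eCRS_Exo relative to eCRS (-0.73 ± 0.11, limma adjusted p = 0.00333) and by 31.1% relative to control (-0.53 ± 0.11, adjusted p = 0.0082). As deposited, its eCRS_Exo values of 136, 111 and 95.8 FPKM overlapped the eCRS values of 132, 88.4 and 128 FPKM (-0.02 ± 0.21, adjusted p = 0.946), and the change against control was 0.42 ± 0.21 (adjusted p = 0.0628). Within the members' own sum, Hspa5 held 7.26% to 7.68% in eCRS_Exo libraries, 8.8% to 9.51% in eCRS libraries and 7.96% to 9.82% in control libraries. Shares of a sum cannot all fall together. Those of Calr and P4hb were higher in eCRS_Exo (means of 8.69% and 9.39%) than in eCRS libraries (6.23% and 7.27%). That of Hsp90b1 had a mean of 10.1% in eCRS_Exo, 10.9% in eCRS and 9.28% in control libraries.

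Hsp90b1 encodes Grp94, the Hsp90 of the ER, and holds a pair of ERSE matches. It had 109, 95.9 and 107 scaled FPKM in eCRS_Exo libraries, 151, 143 and 152 in eCRS libraries, and 121, 116 and 113 in control libraries. The eCRS libraries lay above all others. The change was 0.35 ± 0.09 in eCRS against control (limma adjusted p = 0.0323), -0.51 ± 0.09 in eCRS_Exo against eCRS (adjusted p = 0.00466) and -0.16 ± 0.09 in eCRS_Exo against control (adjusted p = 0.191). Manf, an ER-resident factor that binds BiP and can be secreted, had 25.9, 21.9 and 24.9 scaled FPKM in eCRS_Exo libraries, 42.1, 41.8 and 44.2 in eCRS libraries, and 36.4, 31.4 and 30.9 in control libraries. The 3 groups of Manf did not overlap. It was 29.7% higher in eCRS than in control (0.37 ± 0.09, limma adjusted p = 0.0331), fell by 43.2% in eCRS_Exo relative to eCRS (-0.79 ± 0.09, adjusted p = 0.00168) and by 26.3% relative to control (-0.43 ± 0.09, adjusted p = 0.0102). As deposited, eCRS_Exo was higher than control for Manf (0.50 ± 0.21, adjusted p = 0.031, and 0.0583 to 0.167 without control 2, control 3, eCRS_Exo 1 or eCRS_Exo 2) and for Hsp90b1 (0.79 ± 0.21, adjusted p = 0.00228). Neither rise in eCRS held without every library: Hsp90b1 reached adjusted p of 0.05 to 0.114 without control 1, 2 or 3 or eCRS 1, 2 or 3, and Manf 0.0557 to 0.118 without control 2 or 3 or eCRS 1, 2 or 3. Under quantile normalization the Hsp90b1 changes were 0.26 in eCRS against control (adjusted p = 0.117) and -0.20 in eCRS_Exo against eCRS (adjusted p = 0.136).

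The J-domain partners of BiP split. Dnajb9 (ERdj4) had 17.3, 14.6 and 15.5 scaled FPKM in eCRS_Exo libraries, 25.7, 22.2 and 23.7 in eCRS libraries, and 24.5, 23 and 21 in control libraries. Dnajc3 (P58IPK), with an ERSE, had 17, 14.5 and 18.5 scaled FPKM in eCRS_Exo libraries, 20.6, 26.3 and 25.5 in eCRS libraries, and 28.4, 27.1 and 28.5 in control libraries. In both genes the eCRS_Exo libraries were the lowest of all. Dnajb9 changed by -0.57 ± 0.09 in eCRS_Exo against eCRS (limma adjusted p = 0.00437) and by -0.50 ± 0.09 against control (adjusted p = 0.00581). Dnajc3 changed by -0.51 ± 0.11 in eCRS_Exo against eCRS (adjusted p = 0.0106) and by -0.72 ± 0.11 against control (adjusted p = 0.00321). As deposited, neither was called, and against control Dnajb9 changed by 0.41 ± 0.22 (adjusted p = 0.0857) and Dnajc3 by 0.20 ± 0.19 (adjusted p = 0.319). Dnajb11 (ERdj3) lay between 19.6 and 23.2 scaled FPKM over all libraries and was not called. The same holds for Hyou1, the nucleotide exchange factor of BiP, at 9.3 to 12.4, and for Sdf2l1, a partner of Dnajb11, at 6.75 to 11.8. Deposited values of Dnajb11, Hyou1 and Sdf2l1 were higher in eCRS_Exo than in control (1.03, 0.84 and 1.19, limma adjusted p = 0.000392, 0.00274 and 0.000199). Against eCRS, Dnajb11 (0.68, adjusted p = 0.01, and 0.0679 without eCRS_Exo 1) and Sdf2l1 (0.80, adjusted p = 0.00492) were also called higher. Hyou1 was not (0.51, adjusted p = 0.0578).

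Of the lectin chaperones, which hold glycoproteins while they fold, the membrane-bound Canx was called after scaling and the soluble Calr was not. Canx had 29.2, 29.7 and 30.7 scaled FPKM in eCRS_Exo libraries, 42.7, 47.1 and 46.5 in eCRS libraries, and 40.1, 39.8 and 39.6 in control libraries. The groups did not overlap. Canx fell by 34.2% in eCRS_Exo relative to eCRS (-0.59 ± 0.07, limma adjusted p = 0.00193) and by 25% relative to control (-0.40 ± 0.07, adjusted p = 0.00476), and its change in eCRS against control was 0.18 ± 0.07 (adjusted p = 0.132). As deposited, Canx was instead higher in eCRS_Exo than in control (0.53 ± 0.19, adjusted p = 0.0167), a call lost without control 3, eCRS_Exo 1 or eCRS_Exo 2 (0.0508 to 0.0782). Calr had 105, 85.6 and 77.2 scaled FPKM in eCRS_Exo libraries, 85.2, 84.9 and 85.7 in eCRS libraries, and 80, 87.8 and 88.3 in control libraries. Its eCRS_Exo libraries spanned the range of the other groups, and its changes against eCRS and against control were both 0.05 ± 0.11 (adjusted p = 0.743 and 0.746), while as deposited it was higher in eCRS_Exo than in eCRS (0.77, adjusted p = 0.00903, and 0.076 without eCRS_Exo 1). Each of these genes carries an ERSE match.

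Of the 6 genes of disulfide exchange, 2 were higher in eCRS than in control, against a background of 5.77% of all genes. In eCRS_Exo, 2 were lower than in eCRS and 1 was lower than in control, against 16.2% and 15.6%. As deposited, 2 were higher in eCRS_Exo than in eCRS (33.3%, against 63.0% of all genes) and 0 lower (against 0.730%). All 6 were higher than in control, against 84.3%. Pdia3 (ERp57), the isomerase that works with Canx and Calr, had 78, 72.1 and 76.8 scaled FPKM in eCRS_Exo libraries, 91.8, 95.8 and 99.7 in eCRS libraries, and 67.5, 72.9 and 67.4 in control libraries. All eCRS libraries lay above all others. Pdia3 was 38.3% higher in eCRS than in control (0.46 ± 0.08, limma adjusted p = 0.00695), fell by 21% in eCRS_Exo relative to eCRS (-0.34 ± 0.08, adjusted p = 0.0137), and changed by 0.13 ± 0.08 in eCRS_Exo against control (adjusted p = 0.257). Pdia6, with an ERSE, had 44.4, 37.4 and 43 scaled FPKM in eCRS_Exo libraries, 52.5, 63.3 and 61.6 in eCRS libraries, and 53.3, 51.2 and 49.5 in control libraries. The eCRS_Exo libraries were below all others, by -0.50 ± 0.10 against eCRS (limma adjusted p = 0.00749) and by -0.30 ± 0.10 against control (adjusted p = 0.0471). Pdia5 had 3.68, 3.86 and 3.57 scaled FPKM in eCRS_Exo libraries, 4.13, 4.56 and 3.96 in eCRS libraries, and 2.11, 3.67 and 2.57 in control libraries. Its eCRS libraries were above all others, with 0.48 ± 0.13 in eCRS against control (limma adjusted p = 0.0477). P4hb (PDI), the most abundant isomerase here, had 96.2, 91.5 and 102 scaled FPKM in eCRS_Exo libraries, 95.7, 104 and 99.7 in eCRS libraries, and 95.5, 102 and 101 in control libraries. Its groups overlapped throughout, with -0.05 ± 0.08 in eCRS_Exo against eCRS (limma adjusted p = 0.695), while as deposited P4hb was higher in eCRS_Exo than in eCRS (0.66, adjusted p = 0.00761, and 0.0501 without eCRS_Exo 1). Pdia4 at 11.3 to 17 scaled FPKM and Creld2 at 10.3 to 15 were not called in any comparison after scaling. Deposited Creld2 was higher in eCRS_Exo than in eCRS (0.54 ± 0.21, limma adjusted p = 0.0355), a call lost without eCRS 2 or eCRS_Exo 1 (0.142 to 0.229). The Pdia3 fall was lost without eCRS 3 or eCRS_Exo 2 (adjusted p of 0.0523 to 0.0602), the Pdia6 fall against control without any control or eCRS_Exo library or eCRS 3 (0.0542 to 0.161), and the Pdia5 rise without any library but control 2 (0.0562 to 0.139). Quantile normalization gave -0.06 for Pdia3 in eCRS_Exo against eCRS (adjusted p = 0.657), -0.27 and -0.14 for Pdia6 against eCRS (0.0581) and against control (0.293), and 0.27 for P4hb in eCRS_Exo against eCRS (0.0321), the reverse of its scaled sign.

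The 7 genes of ER-associated degradation, which returns misfolded proteins to the cytosol, had 1 higher and 1 lower in eCRS_Exo than in eCRS (backgrounds of 13.4% and 16.2%), and again 1 higher and 1 lower than in control (12.3% and 15.6%). As deposited, 4 were higher than in eCRS (57.1%, against 63.0% of all genes) and 5 were higher than in control (71.4%, against 84.3%). In both, 0 were lower, against 0.730% and 0.526%. Herpud1, a scaffold of the Hrd1 ubiquitin ligase complex with a CARE match, had 51.2, 44.9 and 58.2 scaled FPKM in eCRS_Exo libraries, 56.7, 72.9 and 62.5 in eCRS libraries, and 89.8, 82.8 and 83.3 in control libraries. The control libraries were above all others, and eCRS_Exo overlapped eCRS. Herpud1 fell by 39.7% in eCRS_Exo relative to control (-0.73 ± 0.12, limma adjusted p = 0.00387), with -0.41 ± 0.12 in eCRS against control (adjusted p = 0.0566) and -0.31 ± 0.12 in eCRS_Exo against eCRS (adjusted p = 0.0752). As deposited, its change in eCRS_Exo against control was 0.22 ± 0.18 (adjusted p = 0.256). Edem2, a protein that acts in the trimming of glycans on proteins bound for degradation, had 15.7, 14.9 and 17.4 scaled FPKM in eCRS_Exo libraries, 12.3, 14 and 12.8 in eCRS libraries, and 13.1, 11.6 and 11.6 in control libraries. All its eCRS_Exo libraries lay above the rest, by 0.27 ± 0.09 against eCRS (limma adjusted p = 0.0402) and 0.38 ± 0.09 against control (adjusted p = 0.0133), and as deposited by 0.95 ± 0.19 (adjusted p = 0.000901) and 1.27 ± 0.19 (adjusted p = 5.22e-05). Its relative Edem1 had 4.35, 3.3 and 4.01 scaled FPKM in eCRS_Exo libraries, 4.64, 5.62 and 5.6 in eCRS libraries, and 4.74, 3.84 and 4.46 in control libraries. Edem1 was lower in eCRS_Exo than in eCRS (-0.37 ± 0.11, limma adjusted p = 0.0322), the opposite direction to Edem2, but as deposited it changed by 0.23 ± 0.20 (adjusted p = 0.302). Sel1l and Syvn1, the adaptor and the ligase of the Hrd1 complex, lay at 13.2 to 17.2 and 5.34 to 6.54 scaled FPKM over all libraries. They were not called, nor were Derl1 at 11.9 to 15.5 and Derl2 at 3.69 to 7.69, members of the derlin family of the same complex. Deposited Sel1l, Syvn1 and Derl1 were higher in eCRS_Exo than in control (0.76, 0.84 and 0.76, limma adjusted p = 0.0014, 0.00139 and 0.00171). They were also higher than in eCRS (0.50, 0.54 and 0.48, adjusted p = 0.027, 0.0294 and 0.0378). The calls against eCRS were lost without 4, 3 and 7 of the libraries in that order (0.0501 to 0.113, 0.0794 to 0.165 and 0.0551 to 0.164). Derl2 was not called on either scale. Scaled calls lost on leaving out a library were those of Edem1 (eCRS 2, eCRS 3 or eCRS_Exo 2, adjusted p of 0.089 to 0.116), of Edem2 against eCRS (any library but control 1 and eCRS 2, 0.0502 to 0.106) and of Edem2 against control (control 3, 0.0506).

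The translocon carries new chains into the ER, and both of its members were lowest in eCRS_Exo. Sec61a1, the channel subunit, had 35.2, 33.5 and 34.4 scaled FPKM in eCRS_Exo libraries, 39.5, 40.6 and 39.3 in eCRS libraries, and 39.1, 43.5 and 39.4 in control libraries. Sec61b, a small accessory subunit, had 60.5, 49.3 and 68.6 scaled FPKM in eCRS_Exo libraries, 74.8, 90.7 and 87.8 in eCRS libraries, and 68.7, 74.7 and 86 in control libraries. In both genes every eCRS_Exo library was under every other library. Sec61a1 changed by -0.21 ± 0.07 in eCRS_Exo against eCRS (limma adjusted p = 0.0569) and was called against control (-0.23 ± 0.07, adjusted p = 0.0381). Sec61b was called against eCRS (-0.51 ± 0.14, adjusted p = 0.0227) and changed by -0.36 ± 0.14 against control (adjusted p = 0.0734). The Sec61a1 call was lost without any control or eCRS_Exo library or eCRS 3 (0.0566 to 0.118) and the Sec61b call without eCRS 2, eCRS 3, eCRS_Exo 1 or eCRS_Exo 2 (0.0604 to 0.0807), as adjusted p. Quantile normalization gave -0.06 for Sec61a1 (adjusted p = 0.563) and -0.24 for Sec61b (adjusted p = 0.17), and as deposited both genes were called higher, not lower, in eCRS_Exo than in control, Sec61b not without control 1 or eCRS_Exo 1 (0.0534 to 0.0652).

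The outputs of the PERK and ATF4 branch held the largest fall among the members. Asns encodes asparagine synthetase, an ATF4 target with a CARE match (chromosome 6, 7675169 to 7693254, minus strand). It had 17.8, 18.1 and 28.6 scaled FPKM in eCRS_Exo libraries, 27.5, 49.4 and 40.4 in eCRS libraries, and 60.3, 55.6 and 62.5 in control libraries. The control libraries were above all others, and eCRS_Exo 3 overlapped eCRS. Asns fell by 63.8% in eCRS_Exo relative to control (-1.46 ± 0.22, limma adjusted p = 0.003) and by 45% relative to eCRS (-0.83 ± 0.22, adjusted p = 0.0208), and it changed by -0.63 ± 0.22 in eCRS against control (adjusted p = 0.102). As deposited, it had 31.1, 28.9 and 33.6 FPKM in eCRS_Exo libraries, 29.4, 35.1 and 39.3 in eCRS libraries, and 46.1, 42.4 and 47.8 in control libraries, with -0.53 ± 0.18 in eCRS_Exo against control (adjusted p = 0.0118). As a share of the members' sum, Asns took 1.66%, 1.9% and 2.7% in eCRS_Exo libraries, 2.11%, 3.49% and 2.89% in eCRS libraries, and 4.73%, 4.41% and 5.1% in control libraries. The Asns call against eCRS was lost without eCRS 2, eCRS 3, eCRS_Exo 1 or eCRS_Exo 2 (adjusted p of 0.0638 to 0.0799). The deposited call against control was lost without control 3 or eCRS_Exo 2 (0.0571 to 0.0639) and on rescaling to a common sum (-0.07, adjusted p = 0.834).

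Chac1, an enzyme that degrades glutathione and an ATF4 target with a CARE match, had 1.08, 1.13 and 2.45 scaled FPKM in eCRS_Exo libraries, 1.52, 5.21 and 3.32 in eCRS libraries, and 5.99, 6.46 and 3.37 in control libraries. All eCRS_Exo libraries were under all control libraries, and eCRS overlapped both. Chac1 fell by 70.6% in eCRS_Exo relative to control (-1.30 ± 0.33, limma adjusted p = 0.0198), and its change in eCRS_Exo against eCRS was -0.72 ± 0.33 (adjusted p = 0.129). Trib3, a pseudokinase induced through ATF4, had 2.49, 3.45 and 2.78 scaled FPKM in eCRS_Exo libraries, 3.78, 3.65 and 3.94 in eCRS libraries, and 2.33, 2.66 and 2.52 in control libraries. The eCRS libraries lay above all others, with 0.45 ± 0.10 in eCRS against control (limma adjusted p = 0.0179) and -0.30 ± 0.10 in eCRS_Exo against eCRS (adjusted p = 0.0415), where the deposited change was 0.26 ± 0.20 (adjusted p = 0.252). Ddit3, the transcription factor CHOP, lay at 12.7 to 13.5 scaled FPKM in eCRS_Exo, 11.8 to 12.3 in eCRS and 12.3 to 17.2 in control libraries and was not called, while as deposited it was higher in eCRS_Exo than in eCRS (0.78 ± 0.20, limma adjusted p = 0.00421) and than in control (0.77 ± 0.20, adjusted p = 0.00231). A second identifier with the symbol Ddit3 is listed at 0 in all libraries. Ppp1r15a (GADD34), the phosphatase subunit that ends the PERK signal, lay at 9.8 to 14 scaled FPKM in eCRS_Exo, 8.05 to 13.5 in eCRS and 7.68 to 9.28 in control libraries and was not called. Deposited Ppp1r15a was higher in eCRS_Exo than in control (1.24 ± 0.27, limma adjusted p = 0.00056) and than in eCRS (0.79 ± 0.27, adjusted p = 0.0164). The call against eCRS was lost without eCRS 2 or eCRS_Exo 1 (0.109 to 0.111). As deposited, Chac1 was also called lower in eCRS_Exo than in control (-0.64 ± 0.24, limma adjusted p = 0.0185), with 0.0568 to 0.0903 without control 1, control 2, eCRS_Exo 1 or eCRS_Exo 2 and 0.32 on rescaling to a common sum. The scaled Chac1 call was lost without control 1, control 2, eCRS_Exo 1 or eCRS_Exo 2 (adjusted p of 0.0595 to 0.0778), the Trib3 rise without control 1, control 3 or eCRS 3 (0.0619 to 0.0722), and the Trib3 fall without any library but eCRS_Exo 2 (0.0506 to 0.152).

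Set against the promoter matches above, 5 of the 8 members with an ERSE were lower in eCRS_Exo than in eCRS, as were 8 of the 23 with a promoter but no match. In eCRS against control, 1 of 8 was higher with an ERSE and 5 of 23 without. All 3 members with a CARE were lower in eCRS_Exo than in control, as were 7 of the 28 without. In eCRS_Exo against eCRS, 1 of 3 with a CARE was lower, and 12 of 28 without. Over all genes, 16.2% were lower in eCRS_Exo than in eCRS, 15.6% lower than in control, and 5.77% higher in eCRS than in control. As deposited, 0 members were lower in eCRS_Exo than in eCRS, and Herpud1 was not called against control (0.22 ± 0.18, limma adjusted p = 0.256). The scaled Chac1 call was lost without any of 4 libraries (adjusted p of 0.0595 to 0.0778). The motif counts rest on scaled values and are descriptions without a test.

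Marker genes of other cell types were read beside the members. Of all genes, 5.77% were called higher and 4.15% lower in eCRS against control after scaling. The shares were 13.4% and 16.2% in eCRS_Exo against eCRS, and 12.3% and 15.6% in eCRS_Exo against control. As deposited, they were 3.01% and 0.518%, 63.0% and 0.730%, and 84.3% and 0.526% in the same order. These shares stand beside all marker counts, here and in the paragraph on plasma cells. The sum of 8 nasal gland genes (odorant-binding and BPI-fold proteins and Dmbt1) was 60314, 75722 and 160046 scaled FPKM in eCRS_Exo libraries, 178047, 332401 and 199098 in eCRS libraries, and 351402, 308951 and 362881 in control libraries. All eCRS_Exo libraries were under all others, and 6 of the 8 genes were called lower in eCRS_Exo than in control (2 without any single control library, eCRS_Exo 1 or eCRS_Exo 2, and 1 under quantile normalization). As deposited, 6 were lower and 1 was higher. The gland genes had a median change of -0.71 in eCRS against control, where the members had 0.12, and 1 of the 8 was called lower. Within each group, the library order of Asns was that of this sum, a match noticed after the values were seen, and both values share the library scale. The 8 goblet and mucous cell genes, 7 of them tested, summed to 243, 267 and 308 scaled FPKM in eCRS_Exo libraries, 491, 460 and 558 in eCRS libraries, and 225, 197 and 205 in control libraries. All 7 were higher in eCRS than in control, and 4 were lower in eCRS_Exo than in eCRS, where the deposited values gave 2 lower and 2 higher. In eCRS_Exo against control 5 of the 7 were higher, with a median of 1.48. Clca1, a goblet cell product, is listed at 0 in control 1 and control 2. Agr2, a goblet cell gene that encodes an ER disulfide isomerase needed for mucin folding, had 137, 151 and 178 scaled FPKM in eCRS_Exo libraries, 344, 328 and 423 in eCRS libraries, and 175, 170 and 170 in control libraries. It changed by 1.07 ± 0.13 in eCRS against control (limma adjusted p = 0.00129) and by -1.23 ± 0.13 in eCRS_Exo against eCRS (adjusted p = 0.00147).

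**Figure D4:**
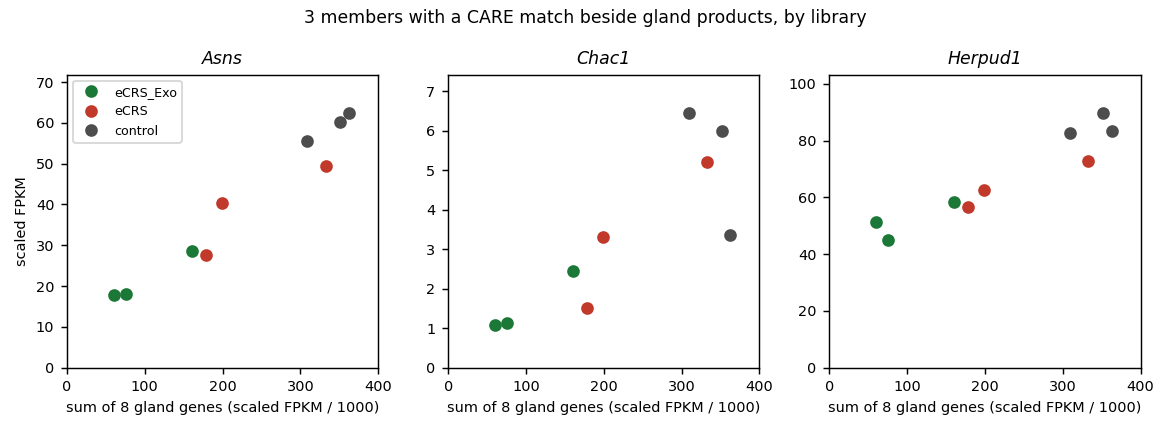
Scaled FPKM of the 3 members with a CARE match (vertical) against the sum of 8 gland genes in the same library (horizontal, scaled FPKM / 1000), 1 point per library coloured by group. For Asns the eCRS_Exo libraries sit at the lower left, at 17.8 to 28.6, and the control libraries at the upper right, at 55.6 to 62.5, and both axes share each library's scale factor.

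The 10 plasma cell genes, of which 4 passed the filter, summed to 84.1, 24 and 46.3 scaled FPKM in eCRS_Exo libraries, 33.5, 230 and 236 in eCRS libraries, and 38.4, 37.1 and 40.3 in control libraries. The high values in eCRS 2 and eCRS 3 came mainly from Jchain, the joining chain of secreted antibodies, at 8.99, 189 and 191 scaled FPKM in eCRS libraries against 3.41, 4.92 and 7.47 in control libraries. By limma 0 of the 4 were called in eCRS against control (2 higher at an unadjusted p under 0.05) or in eCRS_Exo against eCRS (1 lower at an unadjusted p under 0.05). Against control, 1 of the 4 was lower in eCRS_Exo, a count that stayed at 1 whichever library was left out. As deposited, 1 was higher in eCRS than in control and 1 in eCRS_Exo than in eCRS. Deposited eCRS_Exo had 3 higher and 1 lower than in control. Xbp1 had 117, 148 and 137 scaled FPKM in eCRS 1, eCRS 2 and eCRS 3, and 96.1 to 97.8 in control libraries. Olfactory neuron genes summed to 602, 798 and 424 scaled FPKM in eCRS_Exo libraries, 353, 192 and 255 in eCRS libraries, and 506, 605 and 464 in control libraries, lowest in eCRS. After scaling, 3 of the 5 were lower in eCRS than in control, with 0 to 5 when a library was left out. All 5 were higher in eCRS_Exo than in eCRS, with 4 to 5 when a library was left out, and 0 were called against control. As deposited, 0 were called in eCRS against control (3 lower at an unadjusted p under 0.05). All 5 were then higher in eCRS_Exo than in eCRS and than in control. The 3 basal cell genes summed to 29.6, 28.2 and 29.7 scaled FPKM in eCRS_Exo libraries, 40.3, 58.9 and 46 in eCRS libraries, and 39.1, 25.8 and 47.7 in control libraries, and 2 of them were lower in eCRS_Exo than in eCRS (1 as deposited). The 6 macrophage genes summed to 485, 399 and 495 scaled FPKM in eCRS_Exo libraries, 299, 482 and 458 in eCRS libraries, and 300, 225 and 271 in control libraries. Of these, 5 were higher and 1 was lower in eCRS_Exo than in control, with 2 higher without control 1, control 3, eCRS_Exo 1 or eCRS_Exo 2 and 3 without control 2. The 5 neutrophil genes, 4 of them tested, summed to 42.4, 53.2 and 77.6 scaled FPKM in eCRS_Exo libraries, 62.4, 54.4 and 94.9 in eCRS libraries, and 27.7, 44.4 and 25.9 in control libraries. Of these, 3 were higher in eCRS than in control, and 1 was without control 1, control 3 or eCRS 3. The 3 ciliated cell genes summed to 48 to 79.3 scaled FPKM in eCRS_Exo libraries, 43.4 to 70.3 in eCRS libraries and 42.9 to 53.3 in control libraries. The part of these cell types in the members' changes was not tested.

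Other genes of the pathway, none of them a member, were read from lists by function. The translocation and signal peptide processing list, with 22 genes tested, had 18 lower in eCRS_Exo than in eCRS and 19 lower than in control after scaling, but 1 lower and 3 higher against eCRS, and 0 lower and 10 higher against control, as deposited. Its scaled medians were -0.57 and -0.54, beside backgrounds of 16.2% and 15.6% of all genes called lower. The deposited backgrounds called higher were 63.0% and 84.3%. In eCRS against control, 0 of its genes were called by limma (3 higher and 3 lower at an unadjusted p under 0.05), with a median of -0.03. Ssr3, a subunit of the translocon-associated complex, had 48.5, 52.5 and 66.3 scaled FPKM in eCRS_Exo libraries, 99.7, 121 and 102 in eCRS libraries, and 123, 109 and 112 in control libraries. Its eCRS_Exo libraries were below all others (-0.94 ± 0.13 against eCRS, limma adjusted p = 0.00283, and -1.04 ± 0.13 against control, adjusted p = 0.00144). As deposited, Ssr3 changed by -0.23 ± 0.18 (adjusted p = 0.239) and -0.09 ± 0.18 (adjusted p = 0.623). The scaled count against control was 10 without eCRS_Exo 1, and that against eCRS stayed between 14 and 18. Of 26 genes of ER to Golgi transport, 15 were lower in eCRS_Exo than in eCRS and 13 were lower than in control after scaling, against 12 and 18 higher and 0 lower as deposited. Copb1, a subunit of the COPI coat, changed by -0.56 ± 0.08 against eCRS (limma adjusted p = 0.00297) and by -0.65 ± 0.08 against control (adjusted p = 0.00141).

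Of 19 other ER folding factors, 12 were lower in eCRS_Exo than in eCRS and 8 lower than in control after scaling (5 against control without eCRS_Exo 1 or eCRS_Exo 2), while 1 and 0 were lower and 5 and 14 higher as deposited. For these and the lists below, the shares of all genes were 16.2% and 15.6% lower after scaling, and 63.0% and 84.3% higher as deposited. In eCRS against control, 2 of them were higher, Agr2 and the oxidase Ero1l (0.30 ± 0.07, limma adjusted p = 0.0321), the second of which was named after its values were seen, and 1 was lower, Fkbp14 (-0.46 ± 0.09, adjusted p = 0.0142). Of 19 genes of N-glycosylation, 6 were lower in eCRS_Exo than in eCRS (3 without eCRS_Exo 1 or eCRS_Exo 2) and 7 were lower than in control, while 10 and 13 were higher and 0 lower as deposited. Ostc, a subunit of the oligosaccharyltransferase that attaches glycans, changed by -0.91 ± 0.13 against eCRS (limma adjusted p = 0.00294). Of 16 other degradation genes, 5 were lower in eCRS_Exo than in eCRS (2, 3, 1 and 2 without eCRS 2, eCRS 3, eCRS_Exo 1 and eCRS_Exo 2), and 4 were lower than in control, while 9 and 13 were higher and 0 and 1 lower as deposited.

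Of 22 other ATF4 targets and amino acid genes, 8 were lower and 3 higher in eCRS_Exo than in eCRS after scaling, and 6 were lower and 1 higher than in control. As deposited, 1 was lower and 12 were higher against eCRS, and 0 were lower and 16 higher against control. Psph, the last enzyme of serine synthesis, had 5.32, 5.44 and 6.32 scaled FPKM in eCRS_Exo libraries, 10.3, 13.4 and 11.3 in eCRS libraries, and 13.3, 13.6 and 13.5 in control libraries. All its eCRS_Exo libraries were under all others, with -1.11 ± 0.10 against control (limma adjusted p = 0.0004) and -0.91 ± 0.10 against eCRS (adjusted p = 0.00151). Slc7a11, a cystine transporter, was higher in eCRS than in the other groups, by 0.93 ± 0.17 in eCRS against control (limma adjusted p = 0.00847) and with -0.80 ± 0.17 in eCRS_Exo against eCRS (adjusted p = 0.00873). The count of 8 was 4 without eCRS 2 or eCRS_Exo 1 and 2 without eCRS 3 or eCRS_Exo 2, and the count of 6 was 1, 3 and 2 without eCRS_Exo 1, eCRS_Exo 2 and control 3. Of 11 genes of stress kinases and their control, 2 were lower in eCRS_Exo than in eCRS and 3 lower than in control (1 without control 1, control 3, eCRS_Exo 1 or eCRS_Exo 2), beside backgrounds of 16.2% and 15.6%, and 1 was higher than in control, while 7 and 9 were higher and 0 lower as deposited. Among them was Eif2s1, the translation factor that PERK phosphorylates, at -0.59 ± 0.09 in both (limma adjusted p = 0.00337 and 0.00287).

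**Figure D5:**
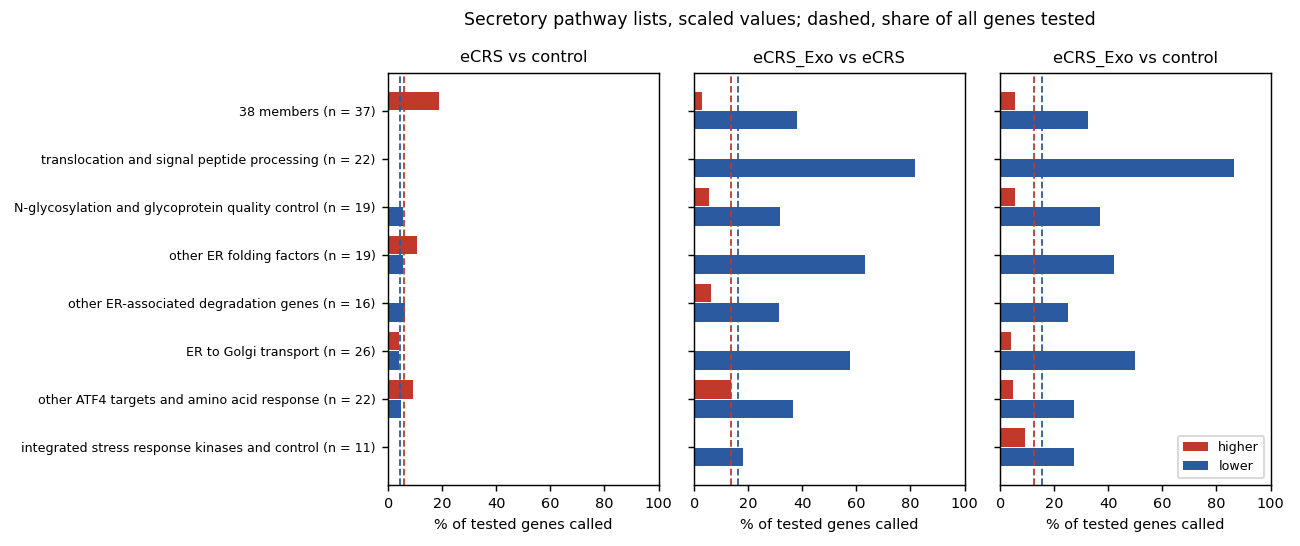
Percent of tested genes called higher (red) and lower (blue) on scaled values in each pathway list, 1 panel per comparison, with the share of all genes as dashed lines. The translocation list reaches 18 of 22 genes lower in eCRS_Exo against eCRS and 19 of 22 against control, where the deposited values gave 1 and 0 lower and 3 and 10 higher. Of all genes, 0.730% and 0.526% were lower and 63.0% and 84.3% higher as deposited.

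Transcript length was looked at because the members differ in it. After scaling, when tested genes were split by exon length into 3 bins of nearly equal size, the shortest bin had a median change of -0.07 in eCRS_Exo against eCRS, with 20.3% called lower, against 0.02 and 14.6% in the middle bin and 0.03 and 13.7% in the longest bin. Of the members, 6 of 18 were lower in the shortest bin, 7 of 11 in the middle bin and 1 of 8 in the longest bin. The part of length in the members' changes was not tested.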

How the data were processed

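The authors deposited 1 table of FPKM values for 9 mouse libraries. Per the submitters' processing notes, the tools were fastp 0.19.4 for trimming, then HISAT2 and StringTie, on mm10. The sources used here do not state annotation, strand setting or the handling of shared reads, so overlapping genes may share reads. Groups and replicate numbers came from sample titles. Symbols were found for 21817 of 21930 identifiers and 113 had none. Members and lists were chosen with earlier results of these data known. Members were the 38 symbols, all described, and from each list up to 2 called genes of smallest p per comparison and its defining markers could be named, of which some are.

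A scale factor per library, the median ratio to each gene's geometric mean over 16486 genes above 0 everywhere, gave the scaled values. The test was limma 3.58.1 in R 4.3.3 on log2(FPKM + 1), with trend, fitting all 9 libraries together (6 residual degrees of freedom). Genes needed an FPKM of 1 or more in 3 or more libraries (12738 as deposited, 12507 scaled). Adjustment was by Benjamini-Hochberg over all of them, at 0.05. Alternatives were a pseudocount of 0.1, no filter, a fit without the group outside the comparison, a replicate block, rescaling to a common sum as TPM (deposited values), quantile normalization (scaled values) and each library left out. Those for list counts were added after seeing the data. Gene coordinates and exon lengths are from GENCODE M21 (GRCm38), promoter sequences from RefSeq (GRCm38.p6). Libraries correlated at 0.979 to 0.988 within and 0.966 to 0.98 between groups (Spearman), so none was a copy. The fit was tested on simulated data. Protein sequences were not analysed here. Python 3.11.15 with pandas 2.3.3, NumPy 2.4.6 and matplotlib 3.10.9 made tables and figures.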

Additional observations from a re-analysis of the deposited data

How the results depend on the processing

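Of 168 counts of called members under alternatives, 122 lay within 1.5 times the reported count, as did 47 of the 60 that left out no library. Counts of 0 that stayed at 0 are included in both, so these shares overstate how stable the other counts were. Members higher in eCRS than in control were 2 as deposited, with 1 under no filter or TPM and 5 in a fit of those groups only, and 7 scaled, with 4 under the replicate block. Members higher in eCRS_Exo than in eCRS were 16 as deposited, with 10 under no filter and 9 in the fit of those groups only, and 1 scaled, with 2 under quantile normalization and 0 under no filter, the replicate block or the fit of those groups only. Members lower in eCRS than in control were 0 scaled and 1 under quantile normalization, and members lower in eCRS_Exo than in control were 2 as deposited, with 1 under no filter and 0 under TPM. P4hb in eCRS_Exo against eCRS was reversed, at 0.27 under quantile normalization against -0.05. Leaving out each library gave, higher then lower, 1 to 10 and 0 to 0 members in eCRS against control as deposited, 2 to 6 and 0 to 1 scaled, 4 to 22 and 0 to 0 in eCRS_Exo against eCRS as deposited, 0 to 1 and 9 to 16 scaled, and 25 to 33 and 0 to 2 in eCRS_Exo against control as deposited, 1 to 3 and 9 to 12 scaled. The causes were not tested. Same-numbered libraries of different groups had correlations of deviations of -0.333 to 0.142 (9 pairs), and differently numbered ones -0.418 to 0.411 (18 pairs). These ranges gave no sign that the numbers pair the libraries, but with 3 libraries a group they cannot exclude it. Scaled calls kept without each library in turn were 2 of 7 higher in eCRS than in control, 9 of 14 lower in eCRS_Exo than in eCRS, and 9 of 12 lower and 1 of 2 higher in eCRS_Exo than in control. With 3 libraries a group and no counts, small changes of low genes such as Ern2 are not resolved.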
